A study of Mus musculus with 36 samples.

Results

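The 10 genes studied here belong to the Nrf2 antioxidant response and were measured in 36 mouse livers. They were chosen by symbol from the 49315 genes of the expression table and cover the regulator Nfe2l2 (Nrf2), its repressor Keap1 and 8 of their response genes, Nqo1, Hmox1, Gclc, Gclm, Slc7a11, Txnrd1, Srxn1 and Gpx4. All 10 genes were found and passed the filter on low values (at least 1 TPM in at least 4 libraries). Polyadenylated RNA from whole liver of male mice aged 11 to 12 weeks had been sequenced, with 4 libraries in each of 9 groups. W/W mice were homozygous for the tryptophan normally found at residue 441 of LXRalpha, a nuclear receptor for oxidized cholesterol. In F/F mice both copies carried phenylalanine there by CRISPR editing, and W/F mice carried 1 copy of each. Each genotype was studied under 3 treatments. These were normal chow, vehicle during a diet high in fat and cholesterol that promotes metabolic steatohepatitis (MASH diet), and T0901317 during the same diet. T0901317 is a compound that activates LXR. The MASH diet was given for 4 weeks, and vehicle or T0901317 (10 mg/kg by daily gavage) for the last 2 of them. Chow mice formed an independent cohort and no gavage is stated for them, so diet, vehicle gavage and cohort cannot be told apart. The edit is in every cell of the animal, and the number of founders is not given in the sources used here.

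Nrf2 is a transcription factor that Keap1 holds in the cytoplasm and passes to the proteasome. Oxidants and electrophiles modify Keap1, Nrf2 escapes degradation, pairs with a small Maf protein in the nucleus and binds antioxidant response elements near genes of glutathione, thioredoxin, NADPH and heme metabolism. In liver this response serves detoxification of drugs and of oxidized lipid, and because it is controlled largely at the protein level, the RNA of Nfe2l2 itself is not a measure of Nrf2 activity.

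Promoters of the members are shown because the response runs through such elements. RefSeq windows (GRCm38.p6, from 250 bases before to 50 bases after an annotated start) were given for 8 of the 10 genes, all but Hmox1 and Gclc. The core TGACNNNGC or TGAGNNNGC on either strand was found in the windows of 5 of these 8 genes (62.5%), against 30.8% of 27025 genes with a window. Counted by window, 5 of 13 member windows (38.5%) and 27.8% of 32851 windows held it, so a single match is common. The 250 bases before the start are printed below, 5′ to 3′ along the transcript, with matches in capitals, for the 4 response genes with a match.
Srxn1 promoter, chr2:152105274-152105523, plus strand: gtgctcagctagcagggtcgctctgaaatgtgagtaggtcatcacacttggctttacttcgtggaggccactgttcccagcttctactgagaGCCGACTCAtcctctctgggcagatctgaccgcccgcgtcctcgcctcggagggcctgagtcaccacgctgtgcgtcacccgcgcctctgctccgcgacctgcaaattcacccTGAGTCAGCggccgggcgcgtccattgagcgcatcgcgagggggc
Gclm promoter, chr3:122245307-122245556, plus strand: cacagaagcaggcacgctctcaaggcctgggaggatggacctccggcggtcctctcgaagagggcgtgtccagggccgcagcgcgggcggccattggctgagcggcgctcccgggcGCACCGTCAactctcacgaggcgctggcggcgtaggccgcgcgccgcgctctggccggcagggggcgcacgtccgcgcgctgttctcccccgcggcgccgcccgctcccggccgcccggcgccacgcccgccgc
Txnrd1 promoter, chr10:82858956-82859205, plus strand: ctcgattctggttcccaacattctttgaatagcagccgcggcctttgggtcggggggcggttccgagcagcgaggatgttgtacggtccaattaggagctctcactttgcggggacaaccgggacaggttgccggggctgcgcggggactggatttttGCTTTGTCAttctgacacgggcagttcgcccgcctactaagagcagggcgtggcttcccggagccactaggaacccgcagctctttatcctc
Slc7a11 promoter, chr3:50443614-50443863, minus strand: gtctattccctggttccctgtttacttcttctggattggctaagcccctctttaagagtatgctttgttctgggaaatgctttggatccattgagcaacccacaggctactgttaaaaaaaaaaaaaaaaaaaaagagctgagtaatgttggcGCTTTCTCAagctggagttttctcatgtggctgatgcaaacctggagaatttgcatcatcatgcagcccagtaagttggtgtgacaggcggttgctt
The Srxn1 window held 3 matches, beginning at 158 and 45 bases before the start and 29 bases after it, the last one outside the bases shown. At least 3 matches were found in 0.63% of all windows. Gclm had its match 134 bases before the start, Txnrd1 92 bases before the second of its 3 annotated starts, and Slc7a11 97 bases before its start. Nfe2l2 had 1 match, 240 bases before its RefSeq start, and Keap1, Nqo1 and Gpx4 had none within their windows. A match is a run of letters, and no binding was measured.

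In the GENCODE M21 annotation (GRCm38) Nfe2l2 lies at chr2:75675513-75704641 on the minus strand, Keap1 at chr9:21229730-21239361 on the minus strand, Nqo1 at chr8:107388225-107403206 on the minus strand and Hmox1 at chr8:75093621-75100589 on the plus strand. Gclc lies at chr9:77754535-77794485 on the plus strand, Gclm at chr3:122245557-122270732 on the plus strand, Slc7a11 at chr3:49892526-50443614 on the minus strand, Txnrd1 at chr10:82833951-82897712 on the plus strand, Srxn1 at chr2:152105516-152111376 on the plus strand and Gpx4 at chr10:80047166-80056439 on the plus strand. Gpx4 shared 34.7% of its 50-base exon segments with 2 other genes, among them the pseudogene Gpx4-ps2, and its level is uncertain to the extent that reads were divided between them. An antisense gene, Gm16754, covered 10.9% of the exon bases of Keap1, and 4.7% of those of Gclm overlapped Gm17494 or Gm6061. The strand setting of the counting is not given in the sources used here.

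Values are TPM (transcripts per 1000000 transcripts), which compare genes per length. The depth recovered from the values was 18060000 to 35810000 reads per library. The 5 hepatocyte markers (Alb, Apoa1, Ttr, Cps1, Cyp2e1) were above 1 TPM in every group, with summed levels from 35470 TPM in F/F mice on MASH diet with vehicle to 87800 TPM in W/W mice on chow. The median of all 16638 genes tested moved between groups, by 0.70 on the log2 scale for F/F relative to W/W and by 0.52 for W/F relative to W/W under vehicle. All comparisons were therefore fitted again after rescaling every library by the median of its gene ratios, which brings the median gene near no change. In bulk tissue, fewer cells of a type and less RNA per cell cannot be told apart. Differences are log2 fold changes of TPM + 1 with their standard errors, tested by limma over all 16638 genes (two-sided, Benjamini-Hochberg, threshold 0.05), and a gene past the threshold is said to be called.

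The members spanned a wide range of levels. Over the 9 group means Gpx4 lay between 228 and 763 TPM and Gclc between 117 and 465 TPM, while Slc7a11 did not exceed 3.67 TPM. The largest group mean was 1.75 times the smallest for Keap1, 1.85 times for Gclm, 2.49 times for Nfe2l2, 9.03 times for Hmox1 and 8.47 times for Srxn1. Keap1 and Gclm were thus the steadiest of these 5 in TPM and Srxn1 and Hmox1 the most variable.

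**Figure D1:**
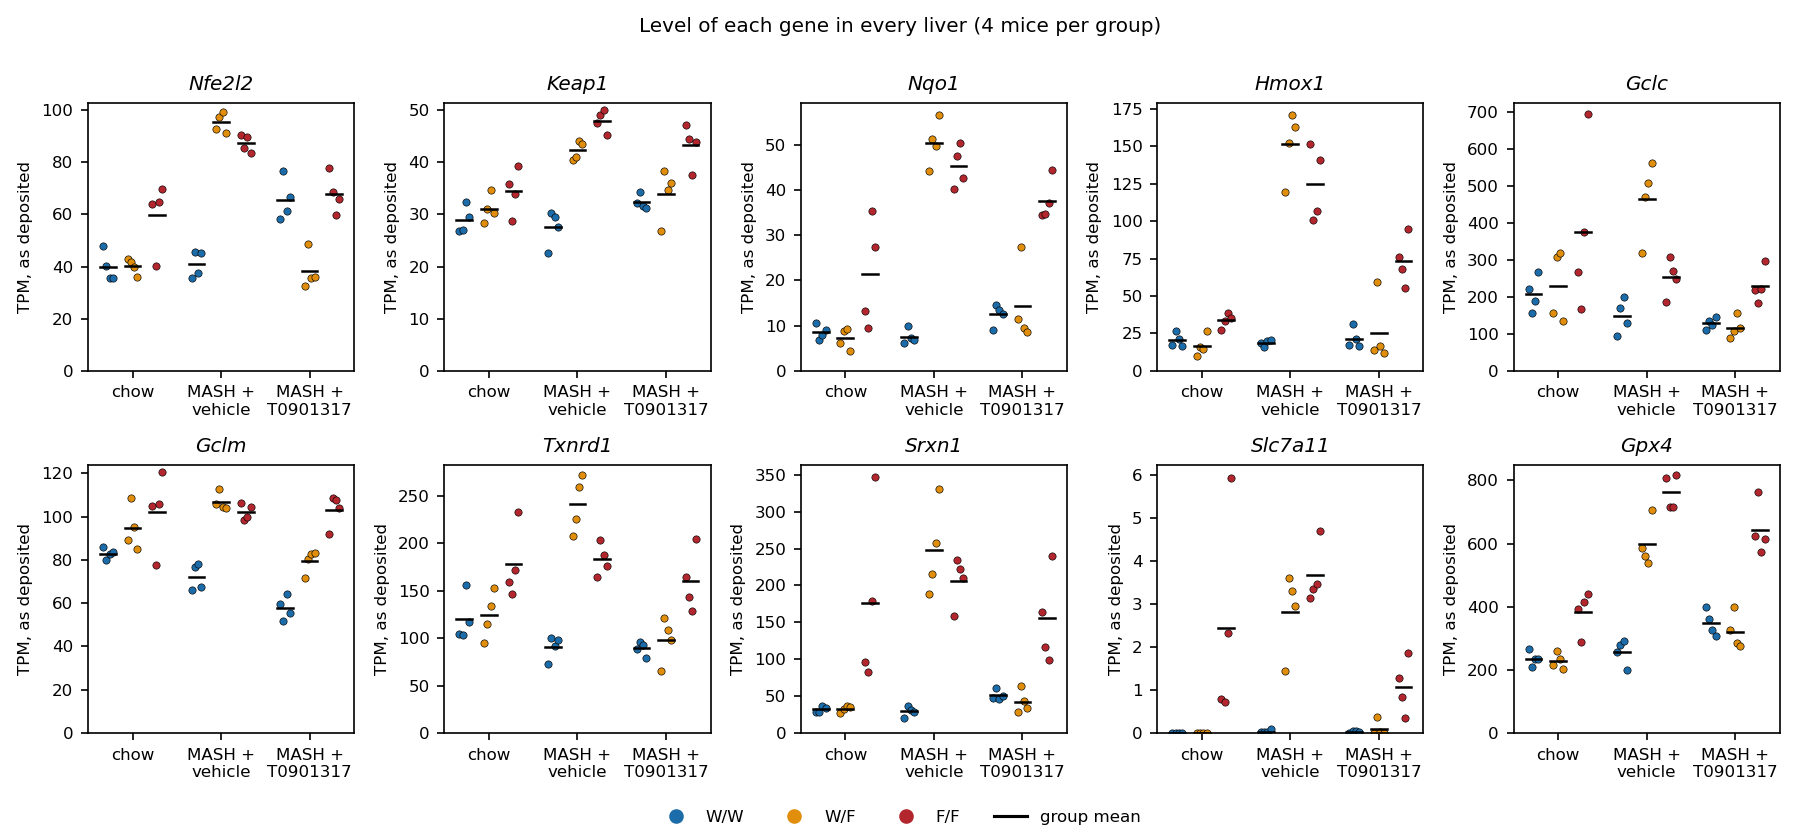
TPM as deposited (vertical axis) of each of the 10 genes in every liver, by treatment (horizontal axis) and genotype (colour), with 4 points and a black line at the mean per group. For Nqo1, Hmox1 and Srxn1 the W/F and F/F mice on MASH diet with vehicle lay above all W/W mice. On T0901317 3 of the 4 W/F mice lay near W/W, and W/F replicate 2 lay above them, at 27.3 TPM for Nqo1 and 59.2 TPM for Hmox1, the latter within the range of the F/F mice.

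Nfe2l2, which encodes Nrf2, had 35.5, 45.6, 37.4 and 45.0 TPM in the 4 W/W mice on MASH diet with vehicle. It had 92.9, 97.5, 99.5 and 91.3 TPM in W/F mice and 90.5, 85.7, 89.6 and 83.5 TPM in F/F mice of the same treatment. The W/W group did not overlap either mutant group, and all W/F values lay above all F/F values. Nfe2l2 was higher than in W/W by 1.21 ± 0.13 (adjusted p = 3.76e-09) in W/F and by 1.08 ± 0.13 (adjusted p = 1.36e-08) in F/F mice, and after rescaling by 0.55 (adjusted p = 2.04e-05) and 0.23 (adjusted p = 0.0464).

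T0901317 moved Nfe2l2 in opposite directions in W/W and W/F mice. With the agonist its level was 58.1, 76.5, 61.3 and 66.5 TPM in W/W mice, above all 4 vehicle values, and 32.6, 48.8, 35.6 and 35.9 TPM in W/F mice, below all 4 vehicle values. It rose by 0.67 ± 0.13 (adjusted p = 0.000695) in W/W livers, and by 0.60 (adjusted p = 6.55e-05) after rescaling. In W/F livers it fell, with a log2 fold change of -1.31 ± 0.13 (adjusted p = 1.53e-09), and of -0.71 (adjusted p = 5.53e-07) after rescaling. The difference between these responses was -1.98 ± 0.19 (adjusted p = 1.55e-09), and -1.32 (adjusted p = 1.35e-08) after rescaling. On T0901317 Nfe2l2 was lower in W/F than in W/W mice, at -0.77 ± 0.13 (adjusted p = 0.00012), and -0.76 (adjusted p = 1.49e-06) after rescaling. In F/F mice on the agonist it was 77.7, 68.6, 59.9 and 65.8 TPM, against W/W a difference of 0.05 ± 0.13 (adjusted p = 0.744) as deposited and -0.47 (adjusted p = 0.000237) after rescaling. Its change in F/F mice against vehicle was -0.36 ± 0.13 (adjusted p = 0.0336) as deposited and -0.10 (adjusted p = 0.584) after rescaling. This call in F/F mice was lost when any of 5 libraries was left out (T0901317 replicates 3 and 4, vehicle replicates 1, 2 and 3), with adjusted p from 0.0569 to 0.124.

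On chow Nfe2l2 was 47.9, 40.4, 35.7 and 35.6 TPM in W/W, 42.8, 41.7, 39.9 and 36.2 TPM in W/F and 64.0, 40.4, 64.9 and 70.0 TPM in F/F mice. Replicate 2 of the F/F mice lay within the W/W range and the other 3 above it. F/F exceeded W/W by 0.55 ± 0.13 (adjusted p = 0.00119), which was not called after rescaling, at 0.17 (adjusted p = 0.197).

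Keap1, the repressor that presents Nrf2 for degradation, varied less. It was 22.7, 30.2, 29.5 and 27.6 TPM in W/W, 40.4, 41.0, 44.0 and 43.5 TPM in W/F and 47.5, 49.1, 50.01 and 45.3 TPM in F/F mice on MASH diet with vehicle. The 3 groups did not overlap in TPM. The differences from W/W were 0.61 ± 0.10 (adjusted p = 3.41e-06) for W/F and 0.79 ± 0.10 (adjusted p = 2.48e-08) for F/F, and they turned to -0.04 (adjusted p = 0.684) and -0.05 (adjusted p = 0.498) after rescaling. Keap1 thus followed the median gene in these comparisons, and its direction depended on the scaling. In W/F mice T0901317 gave -0.32 ± 0.10 (adjusted p = 0.0055) as deposited and 0.27 (adjusted p = 0.00097) after rescaling, both called and of opposite sign. Without W/F T0901317 replicate 1 the deposited value was -0.22 (adjusted p = 0.052).

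A ratio of 2 genes within a library needs no scaling. The Nfe2l2 to Keap1 ratio was 1.495 ± 0.158 (SD, n = 4) for W/W, 2.26 ± 0.117 for W/F and 1.82 ± 0.0696 for F/F mice on MASH diet with vehicle. With T0901317 it was 2.02 ± 0.191 for W/W, 1.13 ± 0.137 for W/F and 1.57 ± 0.0624 for F/F mice, so the order of W/W and W/F was exchanged. The W/F ratios ranged from 2.10 to 2.38 with vehicle and from 0.999 to 1.27 with the agonist. The vehicle and agonist ranges did not overlap in any of the 3 genotypes.

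**Figure D2:**
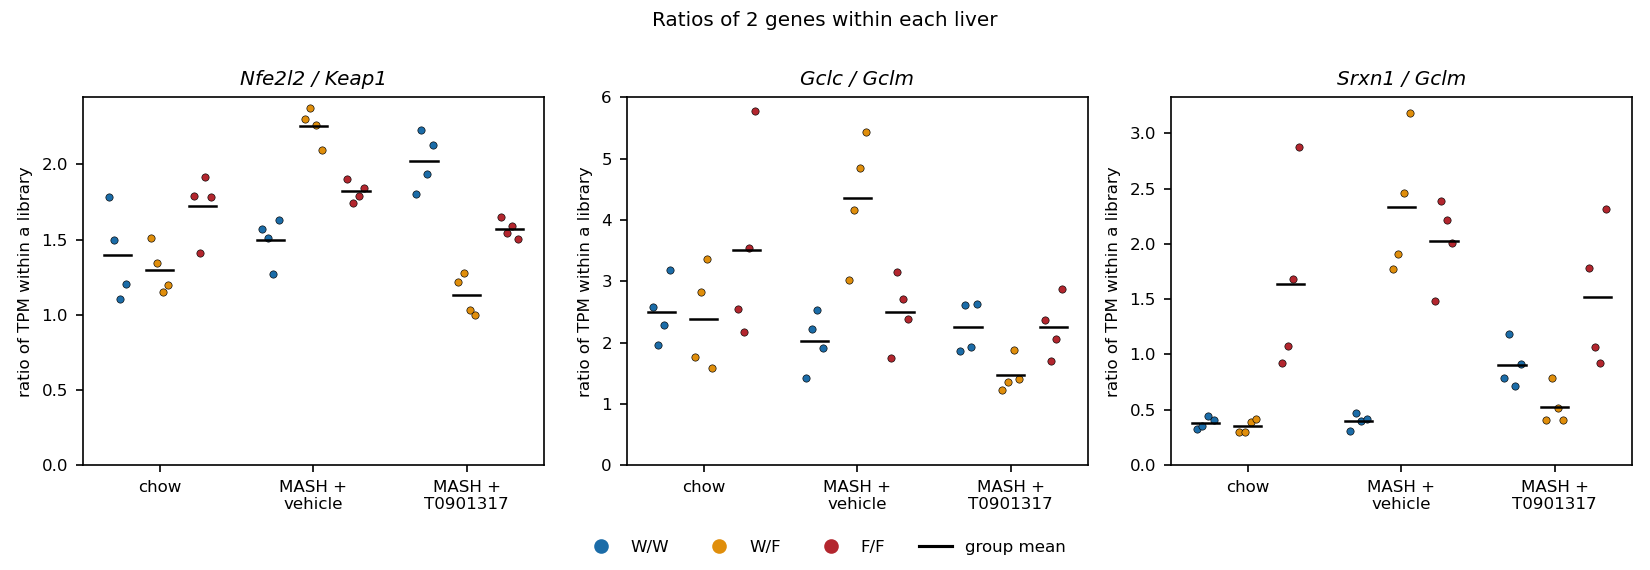
Ratio of TPM within each library (vertical axis) for Nfe2l2 to Keap1, Gclc to Gclm and Srxn1 to Gclm, by treatment and genotype, with 4 points and a line at the mean per group. The W/F mice held the highest mean Nfe2l2 to Keap1 ratio with vehicle (2.26) and the lowest with T0901317 (1.13).

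Nqo1 encodes a quinone reductase and is widely read as a marker of Nrf2 activity. In W/W mice it was 10.5, 6.88, 8.02 and 8.94 TPM on chow, 6.24, 9.91, 7.33 and 6.77 TPM on MASH diet with vehicle and 9.14, 14.6, 13.6 and 12.6 TPM with T0901317. W/F livers held 6.17, 8.88, 9.33 and 4.35 TPM on chow, 44.1, 51.3, 49.7 and 56.6 TPM with vehicle and 11.5, 27.3, 9.55 and 8.63 TPM with T0901317. F/F mice had 13.3, 9.37, 35.3 and 27.4 TPM on chow, 40.3, 47.4, 50.2 and 42.7 TPM with vehicle and 34.4, 34.6, 37.0 and 44.3 TPM with T0901317. All W/W libraries stayed below 15 TPM, and all mutant livers on MASH diet with vehicle lay above 40 TPM. On the agonist W/F livers also lay below 15 TPM except replicate 2, which at 27.3 TPM lay between these levels. F/F livers on chow were split, with 2 libraries near the W/W range and 2 well above it.

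On MASH diet with vehicle Nqo1 exceeded W/W by 2.60 ± 0.29 (adjusted p = 5.58e-09) in W/F and 2.44 ± 0.29 (adjusted p = 8.18e-09) in F/F mice, or 1.98 (adjusted p = 3.15e-07) and 1.63 (adjusted p = 5.14e-06) after rescaling. T0901317 lowered it in W/F mice, at -1.90 ± 0.29 (adjusted p = 1.61e-06), at -1.32 (adjusted p = 0.00015) after rescaling, and as deposited at -2.24 without replicate 2. The change in F/F mice was -0.26 ± 0.29 (adjusted p = 0.498), or 0.00 after rescaling, and was not called. In W/W mice the agonist gave 0.65 ± 0.29 (adjusted p = 0.164), also not called, although 3 of the 4 treated values lay above all vehicle values.

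Hmox1 encodes heme oxygenase 1, which opens heme to biliverdin, iron and carbon monoxide. It was 17.3, 26.4, 21.4 and 16.7 TPM in W/W mice on chow, 19.0, 15.9, 20.1 and 20.9 TPM with MASH diet and vehicle and 17.3, 31.4, 20.99 and 16.4 TPM with the agonist. W/F mice had 9.99, 16.2, 14.4 and 26.5 TPM on chow, 119.8, 152, 171 and 163 TPM with vehicle and 13.7, 59.1, 16.5 and 11.9 TPM with T0901317. F/F mice had 27.6, 33.4, 39.0 and 35.4 TPM on chow, 151, 101, 107 and 141 TPM with vehicle and 75.8, 67.9, 55.2 and 94.9 TPM with T0901317. Every mutant liver on MASH diet with vehicle was above 100 TPM, and no W/W liver exceeded 31.4 TPM.

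The MASH diet with vehicle raised Hmox1 by 3.17 ± 0.31 (adjusted p = 4.01e-10) in W/F and by 1.84 ± 0.31 (adjusted p = 8.92e-06) in F/F mice against chow, or by 2.68 (adjusted p = 6.78e-09) and 1.49 (adjusted p = 0.000121) after rescaling. That in W/W mice was -0.09 ± 0.31 (adjusted p = 0.918), or 0.04 after rescaling. The diet responses differed from that of W/W by 3.25 ± 0.44 (adjusted p = 5.05e-07) for W/F and 1.93 ± 0.44 (adjusted p = 0.000781) for F/F, and both calls held after rescaling, at 2.64 (adjusted p = 9.02e-06) and 1.46 (adjusted p = 0.00978). With T0901317 Hmox1 fell in W/F mice, at -2.84 ± 0.31 (adjusted p = 5.89e-09), at -2.25 (adjusted p = 2.5e-07) after rescaling, and as deposited at -3.34 without replicate 2. The value in F/F mice was -0.76 ± 0.31 (adjusted p = 0.0529), which missed the threshold although vehicle and treated livers did not overlap in TPM as deposited, and after rescaling it was -0.50 (adjusted p = 0.283), with an overlap. Without F/F T0901317 replicate 4 the deposited value was -0.89 (adjusted p = 0.0452).

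With vehicle the summed TPM of 6 macrophage markers (Adgre1, Cd68, Csf1r, Lyz2, Gpnmb, Trem2) exceeded W/W in both mutant genotypes, as Hmox1 did. Between these mutant groups the order was reversed. F/F mice had the larger mean sum (4222 against 3234 TPM), and W/F mice the larger mean Hmox1 (151.5 against 125.0 TPM). The sum ranged from 88.0 to 222 TPM in W/W, 2862 to 3949 TPM in W/F and 3613 to 4707 TPM in F/F mice on MASH diet with vehicle. With T0901317 it ranged from 102 to 226 TPM in W/W, 96.2 to 865 TPM in W/F and 1363 to 2175 TPM in F/F mice. On chow it ranged from 65.0 to 94.8 TPM in W/W, 48.6 to 83.6 TPM in W/F and 472 to 768 TPM in F/F mice. None of the 6 markers was at 0 throughout a group. On vehicle 6 of 6 were called higher in both mutant genotypes than in W/W on both scalings. Of all genes 61.6% were called higher in W/F and 69.3% in F/F as deposited, and 27.6% and 31.0% after rescaling. For T0901317 in W/W mice 0 of 6 were called, beside 10.8% of all genes as deposited and 13.5% after rescaling. The highest W/F value on the agonist came from replicate 2, the library that was also highest in Nqo1, Hmox1 and Slc7a11. The sum of 5 Kupffer cell markers ranged from 2.89 to 4.92 TPM in F/F and 177 to 218 TPM in W/W mice with vehicle, that of 4 cholangiocyte markers from 121 to 153 and 6.02 to 8.73 TPM, and that of 5 stellate cell markers from 303 to 364 and 13.6 to 28.3 TPM. Hepatocyte markers ranged from 32910 to 37410 and 72130 to 94120 TPM, and 5 of 5 hepatocyte and 5 of 5 Kupffer cell markers were called lower in F/F mice. Of all genes 76.5% were called there in either direction as deposited and 59.1% after rescaling. In W/F mice with vehicle the Kupffer cell sum lay above W/W, from 291 to 419 TPM. The markers did not all share this rise. Only 4 of the 5 had a mean of at least 1 TPM in W/F mice, against 5 of 5 in W/W mice. The part of these cell types in the members' differences was not tested.

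Slc7a11 is the cystine importer (xCT) that feeds glutathione synthesis, and it was nearly silent in W/W liver. Recovered reads were 1, 0, 1 and 1 in W/W and 1, 0, 0 and 0 in W/F mice on chow, against 133, 83, 278 and 763 in F/F mice. On MASH diet with vehicle they were 2, 2, 2 and 12 in W/W, 265, 426, 395 and 400 in W/F and 386, 404, 423 and 634 in F/F mice. With T0901317 they were 0, 5, 5 and 3 in W/W, 0, 57, 3 and 0 in W/F and 246, 94, 42 and 281 in F/F mice. The gene was thus detected above 12 reads in every F/F library, in W/F libraries with vehicle, and in 1 W/F library with the agonist, replicate 2. Among W/W libraries vehicle replicate 4 held the most, 12 reads, and the others held at most 5.

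Summed over 4 libraries and per read sequenced, Slc7a11 in F/F mice on chow was 373 times its level in W/W mice, from 1257 and 3 reads (exact 95% interval 127 to 1810, counting error only). Without F/F chow replicate 4 it was 194 (66.0 to 945). On MASH diet with vehicle the ratio to W/W was 72.7 in W/F mice (45.9 to 123) and 99.3 in F/F mice (62.7 to 168). Both rest on W/W vehicle replicate 4, which held 12 of the 18 W/W reads, and without it they were 161 (74.0 to 441) and 220 (101 to 601). Between vehicle and T0901317 the ratio was 23.0 in W/F mice (17.8 to 30.3) and 3.07 in F/F mice (2.81 to 3.36). The value in W/F mice rests on T0901317 replicate 2, which held 57 of the 60 reads, and was 340 (116 to 1650) without it. The fitted log2 fold changes understate these ratios because 1 TPM was added before the logarithm. They were 1.53 ± 0.27 (adjusted p = 4.33e-05) for F/F relative to W/W on chow, 1.85 ± 0.27 (adjusted p = 5.67e-07) and 2.17 ± 0.27 (adjusted p = 1.93e-08) for W/F and F/F relative to W/W with vehicle, and -1.77 ± 0.27 (adjusted p = 1.44e-06) and -1.21 ± 0.27 (adjusted p = 0.0013) for T0901317 in W/F and F/F mice. Each of these 5 values kept its sign and its call after rescaling, which is no separate support because the filter was passed through the same groups. Without F/F chow replicate 4, the highest of the 36 libraries at 5.94 TPM, the chow difference was 1.11. Only 12 libraries reached 1 TPM, all of them W/F with vehicle or F/F. Slc7a11 thus entered the tests through the groups in which it was high. Its calls and adjusted p-values are a description only and add nothing to a count over the members. Slc7a11 is left out of the counts of members given below, except where the text says that it is included or gives the count without it alongside.

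**Figure D3:**
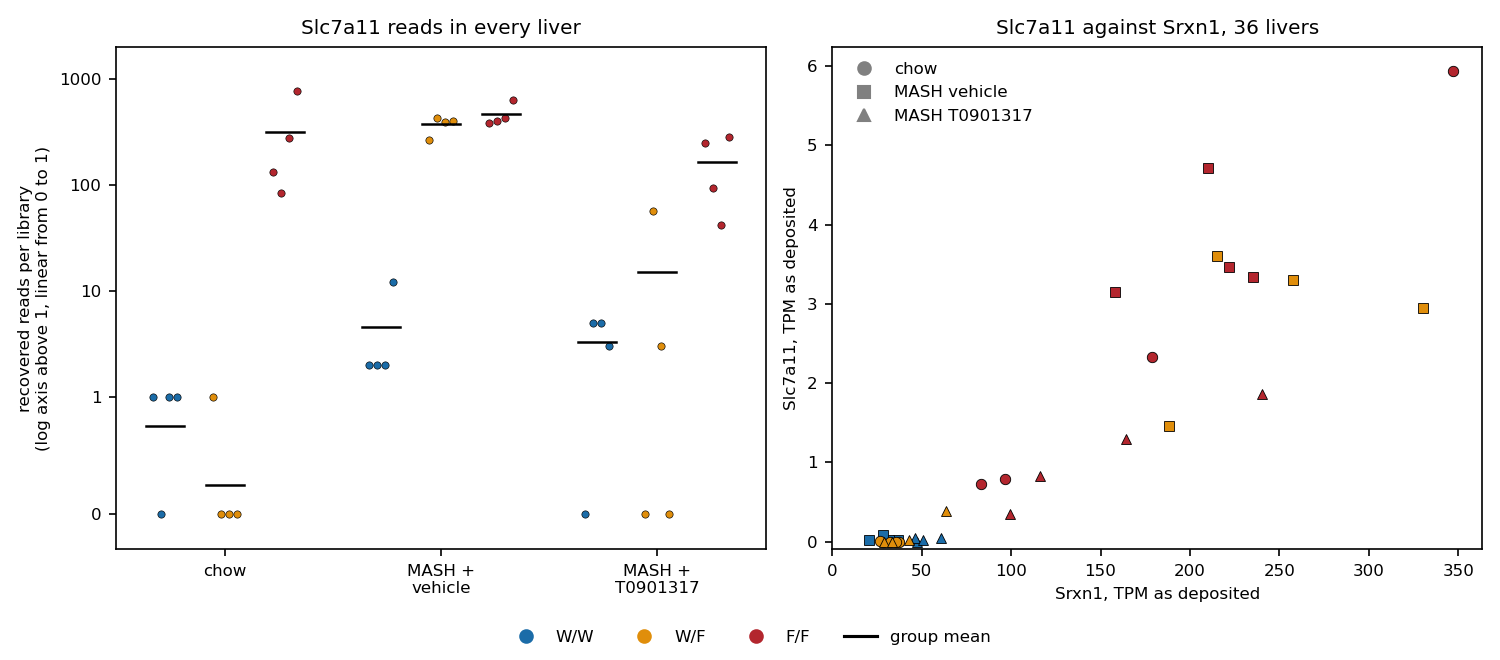
Left, recovered Slc7a11 reads in each liver (vertical axis, logarithmic above 1 and linear from 0 to 1) by treatment and genotype, with a line at the group mean. Right, Slc7a11 against Srxn1 (both TPM as deposited) in the 36 livers, with colour for genotype and shape for treatment. W/W livers held at most 12 reads, and livers high in Slc7a11 were also high in Srxn1.

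Gclc and Gclm encode the catalytic and modifier subunits of glutamate-cysteine ligase, the first step of glutathione synthesis, and they did not move together. Gclc was 93.7, 172, 199 and 129 TPM in W/W, 319.5, 469.8, 508 and 564 TPM in W/F and 186, 309.8, 270.2 and 249.8 TPM in F/F mice on MASH diet with vehicle. All 4 W/F values lay above the other genotypes, and F/F values overlapped W/W. W/F exceeded W/W by 1.67 ± 0.31 (adjusted p = 2.4e-05), and by 1.01 (adjusted p = 0.00407) after rescaling. F/F exceeded W/W by 0.81 ± 0.31 (adjusted p = 0.0201) as deposited, which fell to -0.06 (adjusted p = 0.883) after rescaling, and the deposited call was lost without F/F vehicle replicate 2 (adjusted p = 0.0616) or W/W vehicle replicate 1 (adjusted p = 0.0967).

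Gclc was the only member called lower in F/F than in W/F mice on vehicle as deposited, at -0.86 ± 0.31 (adjusted p = 0.0456), and -1.06 (adjusted p = 0.0155) after rescaling. Leaving out F/F vehicle replicate 1, 3 or 4 or W/F vehicle replicate 2, 3 or 4 each lost the deposited call, with adjusted p from 0.0643 to 0.138. With T0901317 Gclc in W/F mice was 87.9, 109, 156 and 117 TPM, below every vehicle value, and the change was -1.98 ± 0.31 (adjusted p = 2.48e-06), or -1.37 (adjusted p = 0.000211) after rescaling. On chow the F/F values were 267, 169, 376 and 696 TPM, with replicate 4 above every other liver in the study, and the difference from W/W was 0.69 ± 0.31 (adjusted p = 0.0691), or 0.30 (adjusted p = 0.472) after rescaling. As deposited it was 0.33 (adjusted p = 0.395) without F/F replicate 4, 1.01 (adjusted p = 0.00736) without F/F replicate 2 and 0.82 (adjusted p = 0.0498) without W/W replicate 4.

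Gclm stayed between 51.6 and 120.5 TPM in all 36 livers. On MASH diet with vehicle it was 65.9, 77.0, 78.3 and 67.5 TPM in W/W, 106, 113, 105 and 104 TPM in W/F and 106, 98.3, 99.9 and 104 TPM in F/F mice, and the W/W values lay below all others. The difference of F/F from W/W was 0.50 ± 0.09 (adjusted p = 2.11e-05) as deposited and -0.36 (adjusted p = 0.000963) after rescaling, called in opposite directions. That of W/F was 0.56 ± 0.09 (adjusted p = 5.73e-06) and -0.10 (adjusted p = 0.391). With T0901317, where W/F and W/W scarcely differed in their median gene, Gclm was 59.7, 51.6, 64.1 and 55.4 TPM in W/W and 71.6, 80.5, 82.9 and 83.0 TPM in W/F mice, and W/F exceeded W/W on either scaling, by 0.46 ± 0.09 (adjusted p = 0.00125) and 0.47 (adjusted p = 0.000379). In W/W mice T0901317 lowered Gclm, at -0.32 ± 0.09 (adjusted p = 0.0253), -0.39 (adjusted p = 0.00303) after rescaling. The deposited call was lost without T0901317 replicate 2 or 4 or vehicle replicate 2 or 3, with adjusted p from 0.069 to 0.111.

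The Gclc to Gclm ratio within libraries was 2.02 ± 0.478 (SD, n = 4) for W/W and 4.37 ± 1.04 for W/F mice with vehicle, and ranged from 1.75 to 3.15 in F/F mice. With T0901317 it was 2.26 ± 0.425 for W/W, 1.47 ± 0.284 for W/F and 2.25 ± 0.500 for F/F mice. The W/F ratios ranged from 3.02 to 5.43 with vehicle and from 1.23 to 1.88 with the agonist, with no overlap.

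Srxn1 encodes sulfiredoxin, which repairs overoxidized peroxiredoxins, and was higher in both mutant genotypes than in W/W on vehicle. It was 28.2, 28.5, 36.6 and 34.2 TPM in W/W, 26.9, 32.5, 37.2 and 35.6 TPM in W/F and 96.4, 83.3, 179 and 347 TPM in F/F mice on chow. On MASH diet with vehicle it was 20.6, 36.6, 31.6 and 28.3 TPM in W/W, 188, 215, 258 and 330.1 TPM in W/F and 158, 235, 222 and 210 TPM in F/F mice. With T0901317 it was 47.1, 61.0, 46.0 and 50.8 TPM in W/W, 28.9, 63.7, 42.9 and 33.6 TPM in W/F and 164, 116, 99.6 and 240.5 TPM in F/F mice. F/F livers exceeded all W/W livers under each treatment, and W/F livers did so only with vehicle.

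Srxn1 exceeded W/W by 3.04 ± 0.30 (adjusted p = 6.71e-10) in W/F and 2.79 ± 0.30 (adjusted p = 1.47e-09) in F/F mice with vehicle, which is 8.21-fold and 6.91-fold on the TPM + 1 scale, and by 2.38 (adjusted p = 1.68e-08) and 1.93 (adjusted p = 4.3e-07) after rescaling. On chow F/F exceeded W/W by 2.20 ± 0.30 (adjusted p = 1.31e-06) and W/F by 2.15 ± 0.30 (adjusted p = 2.31e-06), or by 1.82 (adjusted p = 6.83e-06) and 1.81 (adjusted p = 9.99e-06) after rescaling. The first of these was, as deposited, 1.80 without F/F replicate 4. The MASH diet with vehicle gave 0.44 ± 0.30 (adjusted p = 0.217) in F/F mice, a value that was 0.85 (adjusted p = 0.00858) without that replicate. T0901317 lowered Srxn1 in W/F mice, at -2.55 ± 0.30 (adjusted p = 2.62e-08), or -1.96 (adjusted p = 7.35e-07) after rescaling. Its value in F/F mice was -0.48 ± 0.30 (adjusted p = 0.22), and in W/W mice 0.81 ± 0.30 (adjusted p = 0.088) with every treated liver above every vehicle liver. The difference of the agonist response between W/F and W/W was -3.36 ± 0.43 (adjusted p = 1.95e-07) as deposited and -2.70 (adjusted p = 1.95e-06) after rescaling.

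Txnrd1 encodes the cytosolic thioredoxin reductase. It was 72.3, 100.4, 91.8 and 97.8 TPM in W/W, 207, 226, 259 and 272 TPM in W/F and 165, 203, 188 and 176 TPM in F/F mice on MASH diet with vehicle, and the 3 groups did not overlap as deposited. W/F exceeded W/W by 1.41 ± 0.17 (adjusted p = 3.52e-08), which held after rescaling at 0.75 (adjusted p = 7.81e-05). F/F exceeded W/W by 1.01 ± 0.17 (adjusted p = 4.76e-06), which did not hold, at 0.15 (adjusted p = 0.386). T0901317 lowered Txnrd1 in W/F mice, at -1.31 ± 0.17 (adjusted p = 1.64e-07) as deposited and -0.71 (adjusted p = 0.000175) after rescaling, to 65.6, 121, 108 and 98.6 TPM. On chow F/F mice had 159, 147, 172 and 234 TPM and exceeded W/W by 0.56 ± 0.17 (adjusted p = 0.00952), which was 0.18 (adjusted p = 0.404) after rescaling. The deposited value was 0.42 (adjusted p = 0.0632) without F/F replicate 4.

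Gpx4 encodes the glutathione peroxidase that reduces lipid hydroperoxides in membranes and guards against ferroptosis. It was 256, 279, 291 and 201 TPM in W/W, 584, 561, 537 and 706 TPM in W/F and 806, 714, 715 and 818 TPM in F/F mice on MASH diet with vehicle, and the 3 groups did not overlap as deposited. It exceeded W/W by 1.22 ± 0.13 (adjusted p = 3.31e-09) in W/F and 1.58 ± 0.13 (adjusted p = 7.3e-12) in F/F mice, and by 0.56 (adjusted p = 0.00107) and 0.71 (adjusted p = 4.97e-05) after rescaling. F/F relative to W/F was not called for Gpx4, at 0.36 ± 0.13 (adjusted p = 0.0513) as deposited and 0.16 (adjusted p = 0.547) after rescaling, with an overlap. Without W/F vehicle replicate 4 the deposited value for Gpx4 was 0.44 (adjusted p = 0.0311). In W/W mice T0901317 raised it to 399, 362, 327 and 308 TPM, by 0.45 ± 0.13 (adjusted p = 0.0246), and 0.38 (adjusted p = 0.067) after rescaling. The deposited call was lost without T0901317 replicate 1 or 2 or vehicle replicate 4, with adjusted p from 0.0683 to 0.124. On chow Gpx4 was 265, 208, 234 and 234 TPM in W/W and 393, 289.7, 416 and 439.6 TPM in F/F mice, a difference of 0.69 ± 0.13 (adjusted p = 0.000117) that was 0.31 (adjusted p = 0.0926) after rescaling.

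The 9 members other than Slc7a11 were next counted by comparison, beside the share of all 16638 genes that was called. On MASH diet with vehicle 9 of 9 were higher in W/F than in W/W as deposited, where 68.5% of genes were called in either direction and 61.6% were higher. After rescaling 7 were higher and 0 lower, against 53.1% called and 27.6% higher. The median log2 fold change of the members was 1.41 as deposited and 0.75 after rescaling, and that of all genes 0.52 and 0.02. In F/F relative to W/W 9 of 9 were higher as deposited (background 76.5%, 69.3% higher). A background without a direction, here and below, is the share of genes called in either direction. After rescaling Nfe2l2, Nqo1, Hmox1, Srxn1 and Gpx4 were higher and Gclm lower, against 59.1% of all genes called and 31.0% higher. The 2 comparisons share the W/W libraries. Directly compared, F/F and W/F mice with vehicle differed in 1 member as deposited (Gclc, background 21.3%) and in 3 after rescaling (Gclc, Txnrd1 and Nfe2l2, all lower in F/F, background 10.6%). For Nqo1 the difference was -0.16 ± 0.29 (adjusted p = 0.747) and for Hmox1 -0.28 ± 0.31 (adjusted p = 0.552), which does not show that the genotypes are alike.

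On chow limma called no member between W/F and W/W, where 0.487% of genes were called as deposited and 0.601% after rescaling. No member had an unadjusted p under 0.05, and voom on recovered reads called 0. F/F exceeded W/W in 6 members as deposited (background 46.7%, 43.0% higher) and in 2 after rescaling, Srxn1 and Nqo1 (background 29.9%, 15.9% higher). Without F/F chow replicate 4 the deposited calls of Gclm and Txnrd1 were lost. Against W/F on chow F/F was higher in 6 members as deposited (background 41.4% in either direction). After rescaling Srxn1, Nqo1 and Gpx4 were higher and Keap1 and Gclm lower (background 31.2%). Txnrd1 lost its deposited call there without F/F replicate 4 (adjusted p = 0.11) or W/F replicate 1 (adjusted p = 0.0935).

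For MASH diet with vehicle against chow in W/W mice limma called no member on either scaling, where 12.9% and 15.4% of genes were called. Gclm and Txnrd1 had an unadjusted p under 0.05 there, with -0.20 ± 0.09 (adjusted p = 0.172) and -0.39 ± 0.17 (adjusted p = 0.14), and voom called 0. In W/F mice it raised 8 members (background 61.0%, 52.4% higher), and after rescaling 6 were higher and Gclm lower (background 54.9%, 27.9% higher). In F/F mice it raised 5 (background 55.8%, 46.5% higher). After rescaling Nqo1, Hmox1 and Gpx4 were higher and Gclc and Gclm lower (background 47.0%, 25.7% higher). The deposited call of Slc7a11 in F/F mice was lost without chow replicate 1 or 2 or vehicle replicate 4, with adjusted p from 0.101 to 0.198. The diet response of W/F differed from that of W/W in 9 of 9 members as deposited (background 54.6%) and in 6 after rescaling (background 40.1%), each time with the larger value in W/F. That of F/F differed from W/W in 5 (background 46.0%) and, after rescaling, in Hmox1 alone (background 26.8%). Over all 10 members the deposited count of 5 became 8 without F/F chow replicate 4, Slc7a11 among them, and Nfe2l2 lost its call without F/F chow replicate 2, W/W chow replicate 1 or W/W vehicle replicate 1, with adjusted p from 0.0541 to 0.0743.

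The responses to T0901317 differed between W/F and W/W mice. In W/W mice Nfe2l2 and Gpx4 rose and Gclm fell, where 10.8% of genes were called. After rescaling Nfe2l2 was higher and Gclm lower (background 13.5%). The deposited count was 1, Nfe2l2, without T0901317 replicate 2. In W/F mice 9 of 9 members fell as deposited (background 65.9%, 59.3% lower). After rescaling 6 were lower, Keap1 was higher, and Gclm and Gpx4 were not called (background 50.8%, 27.1% lower). In F/F mice Nfe2l2 fell as deposited (background 35.1%), and after rescaling Gclm was higher (background 16.3%).

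The difference of the agonist response between W/F and W/W was called in 8 members as deposited, all towards lower values in W/F (background 58.5%), and in 8 after rescaling, 7 lower and Gclm higher (background 43.9%). Between F/F and W/W it was called in 4 as deposited, all lower (background 30.4%), and in 2 after rescaling, Nfe2l2 lower and Gclm higher (background 17.4%). The deposited calls of Keap1 and Srxn1 were lost without F/F T0901317 replicate 3 or W/W vehicle replicate 1, which left 2. On the agonist the members called between W/F and W/W were Nfe2l2 and Gclm, on both scalings (background 9.88% and 13.4%). F/F on the agonist was higher than W/W in 8 members (background 63.2% in either direction), and after rescaling in 5 with Nfe2l2 lower (background 46.9% in either direction). Gclc lost its deposited call there without F/F replicate 4 (adjusted p = 0.0755) or W/W replicate 1 (adjusted p = 0.0584). Against W/F on the agonist F/F was higher in 9 of 9 members as deposited (background 62.6% in either direction), and in 5 after rescaling with Keap1 lower (background 40.3% in either direction).

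**Figure D4:**
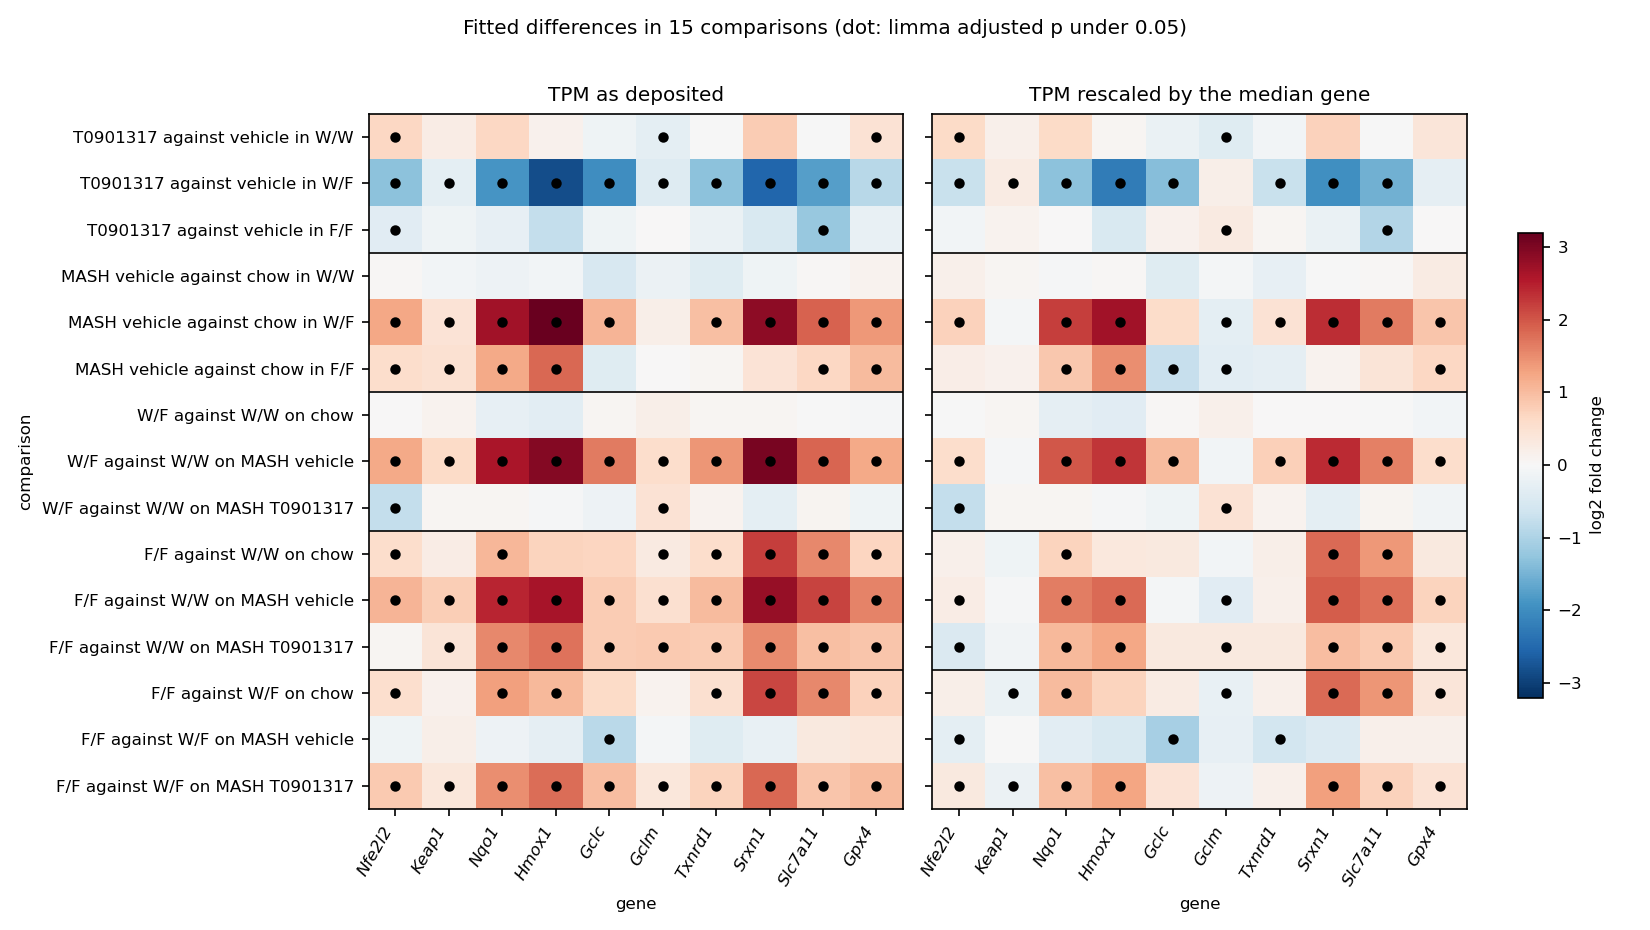
Fitted log2 fold changes (colour) of the 10 genes (columns) in the 15 comparisons of groups (rows), from TPM as deposited on the left and after rescaling on the right. Dots mark limma adjusted p under 0.05. Nqo1, Hmox1, Srxn1 and Slc7a11 had the same direction on both sides in every comparison in which they were called as deposited, while Keap1 and Gclm turned from higher to lower or lost their dots in several rows.

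Other genes of the pathway were taken from 10 lists, some of which share a gene, and are given for F/F relative to W/W on vehicle. The median of all genes there was 0.70 as deposited and 0.03 after rescaling. As given above, 76.5% of all genes were called as deposited (69.3% higher) and 59.1% after rescaling (31.0% higher), and the counts of the lists are read beside these shares. Among 11 partners and regulators of Nrf2, 11 were higher and 0 lower as deposited and 2 were higher and 2 lower after rescaling (median log2 fold change 0.77 and -0.01). Mafk, a small Maf partner of Nrf2, differed by 1.39 (adjusted p = 1.56e-10) and by 0.57 after rescaling, from 12.0 ± 2.35 TPM in W/W to 32.9 ± 2.77 TPM in F/F mice. Sqstm1 (p62), which draws Keap1 into autophagy, differed by 1.33 and 0.46, from 298 ± 60.1 to 741 ± 78.5 TPM. Both were called on both scalings.

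The glutathione S-transferases, which conjugate glutathione to electrophiles, split. Of 13 tested, 7 were higher and 3 lower as deposited and 3 were higher and 6 lower after rescaling (median log2 fold change 0.43 and -0.43). Gstm3 was 33.3 ± 13.5 TPM in W/W and 2591 ± 422 TPM in F/F mice, a difference of 6.31 (adjusted p = 5.73e-12). Gsta1 was 2.35 ± 0.422 and 65.1 ± 15.2 TPM, a difference of 4.29 (adjusted p = 3.76e-09). Gsta3 was lower, at -1.24 (adjusted p = 1.64e-07), from 680.2 ± 63.8 to 294 ± 72.8 TPM. Members of this family are close in sequence, and reads may be divided between them.

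Among 16 further detoxification and export targets of Nrf2, 9 were higher and 2 lower as deposited and 7 were higher and 6 lower after rescaling (median log2 fold change 0.72 and -0.14). The carbonyl reductase Cbr3 was 1.33 ± 0.350 TPM in W/W and 78.4 ± 16.8 TPM in F/F mice, a difference of 5.08 (adjusted p = 3.15e-11). The aldo-keto reductase Akr1b8 differed by 2.11 and the exporter Abcc1 by 2.02, and all 3 were also higher after rescaling. Of 11 glutathione enzymes tested, 6 were higher and 4 lower as deposited and 5 were higher and 5 lower after rescaling (median log2 fold change 1.18 and 0.32). The plasma glutathione peroxidase Gpx3 was 6.41 ± 1.45 TPM in W/W and 181 ± 38.4 TPM in F/F mice, a difference of 4.61, while the microsomal transferase Mgst1 was lower, at -1.05.

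The thioredoxin and peroxiredoxin genes include partners of Txnrd1 and Srxn1. Of 11 genes, 7 were higher and 1 lower as deposited and 0 were higher and 6 lower after rescaling (median log2 fold change 0.48 and -0.37). Thioredoxin itself, Txn1, differed by 0.84 as deposited and by -0.03 (adjusted p = 0.857) after rescaling, and Prdx6 by -0.47 and -1.33. Of 4 genes of superoxide and peroxide removal, 1 was higher and 2 lower as deposited and 1 was higher and 3 lower after rescaling (median log2 fold change -0.34 and -1.20). Sod3 was higher, at 1.41 and 0.58. Catalase (Cat) was lower, at -1.31 and -2.17, and so was Sod1, at -0.65 and -1.52, each called on both scalings. Hepatocyte markers fell in the same comparison, as given above.

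NADPH is the reductant that Nqo1, Txnrd1 and glutathione reductase draw on. Of 6 NADPH-generating enzymes, 4 were higher and 2 lower in F/F relative to W/W on vehicle and 2 were higher and 2 lower after rescaling (median log2 fold change 0.77 and -0.09). G6pdx, the entry to the pentose phosphate pathway, went from 3.34 ± 1.44 TPM in W/W to 22.6 ± 1.87 TPM in F/F mice (adjusted p = 1.78e-09). It differed by 1.74 after rescaling, and Pgd, its next dehydrogenase, by 1.63, while malic enzyme Me1 was lower, at -2.32. In W/W mice given T0901317 all 6 were higher as deposited and 5 after rescaling, where 10.8% and 13.5% of all genes were called. G6pdx went from 3.34 ± 1.44 to 45.4 ± 7.30 TPM (log2 fold change 3.47, adjusted p = 1.54e-10) and Me1 from 139 ± 39.5 to 499 ± 69.1 TPM (1.87, adjusted p = 3.03e-05). In the same mice Gstm3 rose by 3.70 and Gstm2 by 2.02, and 8 of 13 glutathione S-transferases were higher and 1 lower as deposited, beside the same 10.8% of all genes.

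Of 12 heme and iron genes, 9 were higher and 2 lower as deposited and 3 were higher and 2 lower after rescaling (median log2 fold change 0.84 and 0.05). The heme transporter Slc48a1 differed by 1.86 and 1.00, and ferritin heavy chain Fth1 by 1.42 and 0.55. Cd163, the hemoglobin scavenger receptor of resident macrophages, was lower, at -2.34 and -2.63. ATF4 is a stress factor that also acts on Slc7a11. Of 10 of its targets, 9 were higher and 1 lower as deposited and 6 were higher and 1 lower after rescaling (median log2 fold change 1.81 and 1.00). Asns differed by 2.83, Psat1 by 2.70 and Phgdh by 2.37, while Chac1, which degrades glutathione, was lower, at -1.13. Of 7 ferroptosis genes tested, 5 were higher and 1 lower as deposited and 2 were higher and 3 lower after rescaling (median log2 fold change 0.99 and 0.15), with Acsl4 at 1.48 and Lpcat3 at -0.64.

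**Figure D5:**
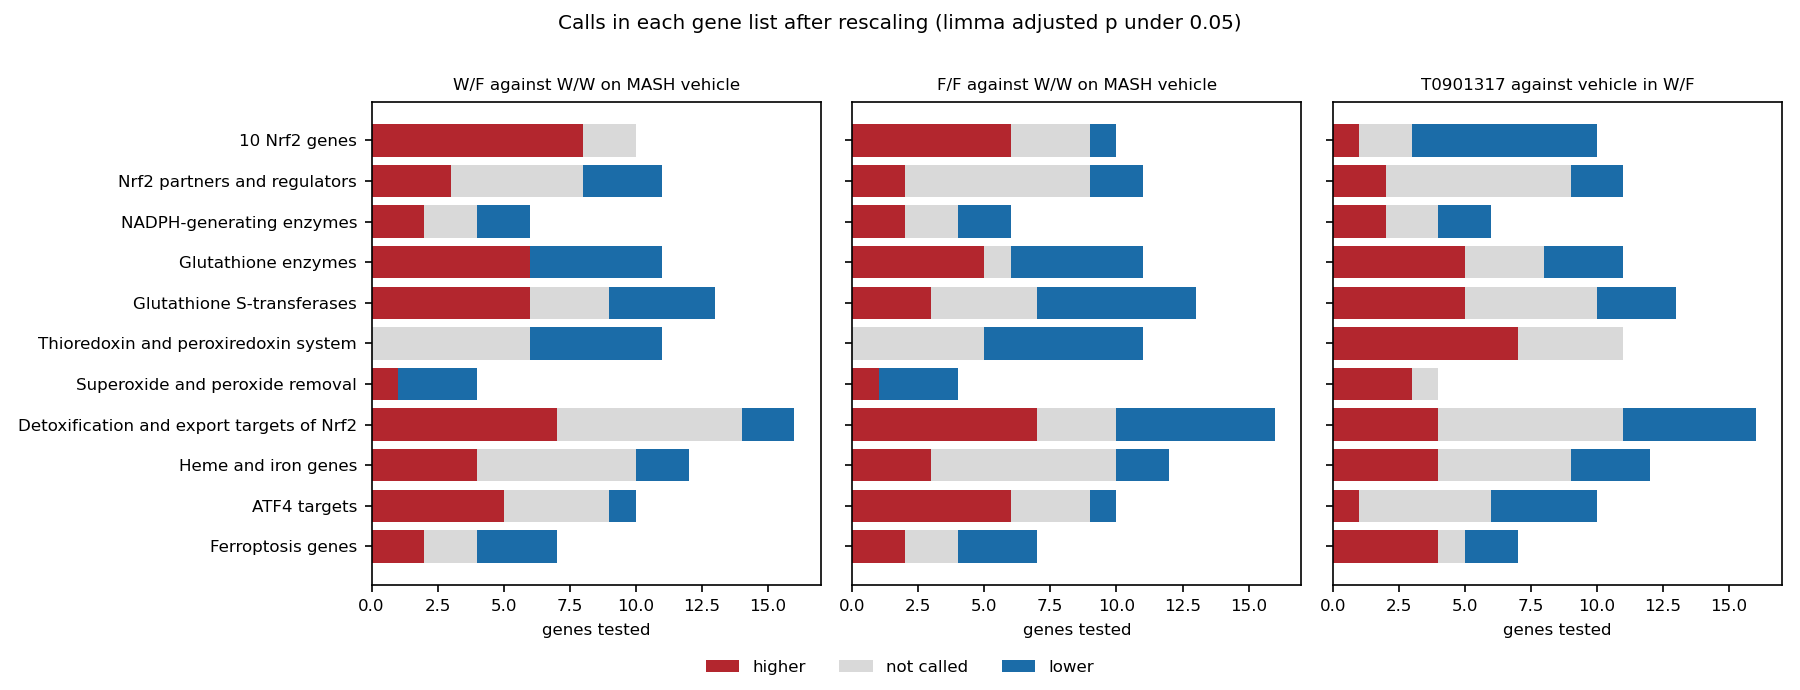
Number of genes tested (horizontal axis) in the members and 10 pathway lists (rows) that were higher, not called or lower after rescaling (limma adjusted p under 0.05), in W/F and F/F relative to W/W on MASH diet with vehicle and for T0901317 in W/F. With vehicle 8 of 10 members were higher in W/F, or 7 of 9 without Slc7a11. Of all genes 53.1% were called there in either direction and 27.6% were higher. Of 11 thioredoxin and peroxiredoxin genes 5 were lower and none higher.

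Over the 36 livers (rescaled log2 values, Pearson r as a description, with livers sharing their groups) the members formed no single block. Srxn1 and Slc7a11 were most alike (r = 0.93), followed by Nqo1 and Srxn1 (r = 0.87) and Nqo1 and Hmox1 (r = 0.84). Gclc was most like Txnrd1 among the members (r = 0.72). Keap1 was at or below 0.19 with every other member, and Nfe2l2 and Gclm were lowest (r = -0.63). Among all genes with a mean of at least 5 TPM, Nqo1 was closest to Gm3776 (0.933), Gsta1 (0.932) and Acot9 (0.93), and Hmox1 to Snx5 (0.96), Cd300lb (0.959) and Lrrc25 (0.958). Srxn1 was closest to Sprr1a (0.957), Tpm1 (0.947) and Cd14 (0.946), and Slc7a11 to Srxn1 (0.926), Map4k4 (0.924) and Gm11843 (0.921). For Gpx4 the closest was its pseudogene Gpx4-ps2 (0.96), with which it shares sequence. Nfe2l2 was closest to G6pdx (0.837), Gclm to Ces1c (0.849), Gclc to Snx4 (0.765), Txnrd1 to Snx7 (0.825) and Keap1 to Stk40 (0.85).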

How the data were processed

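Polyadenylated RNA of 36 mouse livers had been sequenced, 4 numbered samples in each of 9 groups, and p-values measure the spread between these samples. The authors deposited 1 table of TPM, in which each library sums to 1000000. The submitters' processing notes name Trimmomatic 0.36, STAR 2.5.2b, featureCounts, Subread 1.5.2 and the mouse build GRCm38 (mm10). The annotation and the computation of TPM are not given in the sources used here.

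From these values log2(TPM + 1) was fitted with limma 3.58.1 (trend, moderated) in R 4.3.3, with 1 mean per group over all 36 libraries. Genes entered if at least 4 libraries reached 1 TPM (16638), p-values were adjusted by the Benjamini-Hochberg method over all of them in each of 19 contrasts, and the threshold was 0.05. The script was tested on simulated data. TPM remove gene length and total, so a change in a few abundant genes moves all others, and each fit was repeated after median-of-ratios rescaling over 14786 genes. Whole reads were recovered from the TPM with GENCODE M21 exon lengths: 93.7 to 95.7% of low values lay within 0.1 of a whole number, where chance gives 20%. They gave depths of 18060000 to 35810000 reads (median 23900000). Among 54 pairs of libraries within groups the lowest mean chi-square per gene was 12.2, so no such pair differed by counting error alone. Pairs across groups were not compared. The check cannot tell whether libraries of a group came from the same mouse.

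Alternatives were a pseudocount of 0.1 TPM, no filter, a filter of 5 TPM, a replicate block, fits of only the groups compared, leaving out each library, voom on recovered reads, ratios of Slc7a11 reads without each library, and counts without Slc7a11, the last 3 chosen after seeing the data. The members and gene lists were chosen with earlier results of these data known. Besides the members, the text names from each list up to 3 highest and 3 lowest genes called as deposited in F/F relative to W/W on vehicle, and for each member up to 3 genes of highest correlation. Tables were made with Python 3.11.15, numpy 2.4.6 and pandas 2.3.3, and figures with matplotlib 3.10.9. Promoter and gene coordinates are 1-based.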

Additional observations from a re-analysis of the deposited data

Results flagged for a closer look

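In 5 of 90 groups of 4 values 1 liver stood apart from the other 3 by Dixon's criterion, where chance gives about 1 in 20, or 4.5. Replicate 2 of the W/F mice on T0901317 was the highest of its group in Nqo1 (27.3 TPM), Hmox1 (59.2 TPM) and Slc7a11 (0.381 TPM), and it also had the highest sum of macrophage markers of that group. The other instances concern Slc7a11 at 12 reads or fewer, at 0.0086 TPM in W/F chow replicate 1 and 0.0847 TPM in W/W vehicle replicate 4.

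Genotypes differed in their response in 29 of 40 tests of the difference itself as deposited and in 19 after rescaling (limma). Without Slc7a11, which passed the filter on low values only through the groups where it was high, these were 26 and 17 of 36. Of all genes 58.5% were called for the T0901317 response of W/F minus W/W and 30.4% for that of F/F minus W/W as deposited, and 43.9% and 17.4% after rescaling. For the diet response the shares were 54.6% and 46.0% as deposited and 40.1% and 26.8% after rescaling. These differences share the W/W libraries. For T0901317 against vehicle, W/F minus W/W was -1.98 for Nfe2l2, -0.56 for Keap1, -2.55 for Nqo1, -2.97 for Hmox1, -1.83 for Gclc, -1.30 for Txnrd1, -3.36 for Srxn1, -1.76 for Slc7a11 and -1.35 for Gpx4. Keap1 turned to 0.10 after rescaling and was then not called. F/F minus W/W was -1.03 for Nfe2l2, -0.39 for Keap1, -1.28 for Srxn1, -1.20 for Slc7a11 and -0.70 for Gpx4, and of these only Nfe2l2 was called after rescaling.

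For MASH diet with vehicle against chow, W/F minus W/W was 1.19 for Nfe2l2, 0.51 for Keap1, 2.86 for Nqo1, 3.25 for Hmox1, 1.60 for Gclc, 0.38 for Gclm, 1.36 for Txnrd1, 2.99 for Srxn1, 1.86 for Slc7a11 and 1.26 for Gpx4. After rescaling Keap1 turned to -0.10 and Gclm to -0.25, and these 2 and Gclc were not called. F/F minus W/W was 0.53 for Nfe2l2, 0.55 for Keap1, 1.38 for Nqo1, 1.93 for Hmox1 and 0.88 for Gpx4, and of these only Hmox1 was called after rescaling.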

How the results depend on the processing

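Counts of members here are over all 10, Slc7a11 included. The share of all genes called was taken only for the deposited and rescaled fits. Counts under the other settings have no such share beside them. They show only how the calls moved with the processing. The rescaling of libraries changed most. Followed here are 144 values of single members that were called on at least 1 scaling or are given in the text. Of these 144 values, 23 changed sign after rescaling, some of them also losing their call. Values outside this set could change sign too, such as Keap1 for F/F relative to W/W on chow, from 0.24 to -0.14, called on neither scaling. A further 27 kept their sign and lost their call. Counts of members called then became 3 for F/F relative to W/W on chow (background 29.9%) and 3 for F/F relative to W/F on vehicle (background 10.6%). They became 2 for the T0901317 response of F/F minus W/W (background 17.4%) and 1 for the diet response of F/F minus W/W (background 26.8%). Without Slc7a11 the count on chow was 2 and the others were the same. Keap1 turned to 0.27 for T0901317 in W/F, -0.06 for diet in W/F, -0.04 for W/F and -0.05 for F/F relative to W/W on vehicle, -0.11 for F/F relative to W/W on T0901317, -0.21 and -0.18 for F/F relative to W/F on chow and T0901317, and 0.10 and -0.10 for the T0901317 and diet response of W/F minus W/W. Gclm turned to 0.18 for T0901317 in W/F, -0.32 and -0.33 for diet in W/F and F/F, -0.10 and -0.36 for W/F and F/F relative to W/W on vehicle, -0.10 for F/F relative to W/W on chow, -0.25 and -0.16 for F/F relative to W/F on chow and T0901317, and 0.57 and -0.25 for the responses of W/F minus W/W. Gclc turned to -0.06 for F/F relative to W/W on vehicle, Nfe2l2 to -0.47 for F/F relative to W/W on T0901317, Nqo1 to 0.00 for T0901317 in F/F and Hmox1 to 0.04 for diet in W/W. Rescaling takes out the shift of the median gene by construction, and the causes of the other changes were not tested.

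Without a filter 1 member was called for T0901317 in F/F and 0 for F/F relative to W/F on vehicle. The latter count was 0 with a pseudocount of 0.1 TPM, 2 with a filter of 5 TPM and 3 in a fit of only the groups compared. The T0901317 response of F/F minus W/W had 8 calls when only the compared groups were fitted and 3 with voom on recovered reads. With voom Gclm turned to -0.01 for diet in F/F and 0.16 for the T0901317 response of W/F minus W/W, Slc7a11 to -0.52 for the diet response of F/F minus W/W and Hmox1 to 0.01 for diet in W/W. Leaving out 1 library gave 1 to 3 calls for T0901317 in W/W, 1 to 2 in F/F, 0 to 1 for F/F relative to W/F on vehicle, 2 to 6 for the T0901317 response and 4 to 8 for the diet response of F/F minus W/W. The log2 fold change of Gclm then ranged from -0.02 to 0.06 for T0901317 in F/F and from -0.11 to 0.10 for diet in F/F, that of Nfe2l2 from -0.01 to 0.13 for F/F relative to W/W on T0901317 and that of Hmox1 from -0.17 to 0.04 for diet in W/W.

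With the replicate number as a block, 2 values gained a call and 142 did not change theirs, and F/F relative to W/W on chow had 9 calls in place of 7. Libraries of the same number correlated between -0.17 and 0.30 in their deviations, and in no comparison were all pairs over 0.1, so the numbers were not taken to pair the samples.

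The depth limits Slc7a11, which rested on 0 to 12 reads per library in W/W mice. Where groups differ in cohort, as chow and MASH diet do, the comparison cannot be told apart from it.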

Other observations

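The wider pathway under T0901317 in W/F mice, where 9 of the 9 members other than Slc7a11 fell as deposited and 6 after rescaling, was mixed on the second scale (limma, the fit given above), on which 50.8% of all genes were called and 27.1% were lower. Of 11 thioredoxin and peroxiredoxin genes 7 were higher and 0 lower, with Prdx6 at 1.08 and Prdx3, not called, at -0.09. Of 4 genes of superoxide and peroxide removal 3 were higher and 0 lower, with catalase (Cat) at 1.27 and Sod1 at 1.27. Of 10 targets of ATF4, the amino acid stress factor, 1 was higher and 4 lower, with Asns, not called, at -0.34 and Phgdh at -0.69. Of 13 glutathione S-transferases 5 were higher and 3 lower, with Gstm3 at -2.96 and Gsta3 at 1.13. As deposited the median gene was -0.49 in this comparison, and the same genes read 0.48 for Prdx6, -0.69 for Prdx3, 0.66 for Cat, 0.66 for Sod1, -0.89 for Asns, -1.01 for Phgdh, -3.57 for Gstm3 and 0.53 for Gsta3. Summed hepatocyte markers ranged from 56180 to 65630 TPM with vehicle and 54130 to 79110 TPM with T0901317, and 3 of 5 were called higher as deposited (median 0.44) and 4 of 5 after rescaling (median 1.05). Of 6 macrophage markers 6 were called lower as deposited (median -3.74) and 6 after rescaling (median -3.21). As deposited 65.9% of all genes were called in this comparison and 59.3% were lower. The part of these cell types in the values was not tested.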
